A study of Mus musculus with 25 samples.

Results

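Ribosome biogenesis factors were followed across RNA-seq of murine hematopoietic stem cells with and without Znf143. They were taken from the deposited gene table by symbol: 36 symbols that begin with Utp, Rrp, Nop, Noc or Nol followed by a digit, and 7 added by name (Fbl, Ncl, Npm1, Nolc1, Bop1, Pes1 and Wdr12). Nol3, Nol4 and Nol4l, which match the spelling but are not known as assembly factors, were left out, as was Noct. This gave 43 of the 23116 genes in the table, and the rule uses symbols and no measured value.

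Ribosomes are built in the nucleolus, where a long precursor rRNA is transcribed, modified, cut and folded onto ribosomal proteins. Box C/D and box H/ACA small nucleolar ribonucleoproteins (snoRNPs) guide methylation and pseudouridylation of the rRNA, the small subunit processome assembles on the nascent precursor and releases the small subunit, and a separate set of factors matures the large subunit. Hematopoietic stem cells are known for a low rate of protein synthesis, and inherited defects of ribosome assembly are a known source of bone marrow failure.

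The cells were sorted from the bone marrow of adult C57BL/6 mice as LSK+ CD150+ CD48- (the HSC SLAM gate). The 3 wild type libraries (WT1 to WT3) came from Znf143 f/f mice without Cre (Rosa26ERT2-Cre-), and the 3 knockout libraries (KO1 to KO3) from littermates with Znf143 f/f and Rosa26ERT2-Cre+, written Znf143 -/-, in which tamoxifen activates the recombinase. Both genotypes therefore carry the floxed allele, in which loxP sites flank exon 1, and the Cre is driven in every tissue, so that the deletion is not limited to blood cells. The labels of the samples call the deleted genotype a CTCF knockout, whereas the methods name Znf143. The mice were male, 8 to 12 weeks old, and both genotypes received tamoxifen by injection for 10 days. The comparison asks whether loss of ZNF143, a zinc finger factor that binds promoters, changed the mRNA level of the ribosome assembly machinery.

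The targeted gene, listed as Zfp143, had 3.09, 4.45 and 3.68 FPKM (fragments per kilobase of gene length, scaled to the size of the library) in WT1 to WT3 and 0.156, 0.299 and 0.272 FPKM in KO1 to KO3, a log2 fold change of -3.50 (SE 0.239, limma with Benjamini-Hochberg adjustment, adjusted p = 0.001). The libraries held 38643255 to 57895793 fragments on genes. Of 9 stem cell markers, Ly6a was called higher by 1.13 on the log2 scale and Mecom lower (-0.55), and the summed level of the 9 was 481 to 537 FPKM in the WT and 759 to 807 FPKM in the KO libraries, with Ly6a alone between 553 and 605 FPKM in the latter. Of the 9, 7 had a log2 fold change below 0 (median -0.40), and without Ly6a the sum was 239 to 247 FPKM in WT and 166 to 217 FPKM in KO. The 5 lymphoid markers summed to 0.0315 to 0.215 FPKM in any library. The 6 neutrophil and granulocyte progenitor markers summed to 164 to 249.5 FPKM in WT and 222 to 366 FPKM in KO, and 3 of them (Elane, Ngp and S100a8) were called higher. Prtn3 made up most of each sum, at 122 to 227 FPKM in WT and 141 to 279 FPKM in KO. The sums of KO2 and KO3, 222 and 237 FPKM, lay within the WT range, and that of KO1 was 366 FPKM. Prtn3 (log2 fold change 0.03), Ltf (-0.01) and Mpo (1.46) were not called by limma. The 4 megakaryocyte markers summed to 529 to 602 FPKM in WT and 649 to 982 FPKM in KO with none called by limma, though 2 had an unadjusted p under 0.05. Csf1r, a macrophage marker, was called higher (1.56) at 0 to 0.264 FPKM, and Hbb-bt, of 5 erythroid markers, was called lower (-1.38). Of the 12 proliferation genes, 1 was called (Pcna, 0.36 higher), and their sum was 558 to 603 FPKM in WT and 644 to 678 FPKM in KO. A log2 fold change above 0 was found for 8 of the 12. The other 4 were below 0: Mki67 (-0.27), Plk1 (-0.27), Top2a (-0.23) and Birc5 (-0.13). The part of these shifts in the values below was not tested, and in a bulk sample fewer cells of a type and less RNA per cell cannot be told apart.

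The 6 libraries were not equally far from each other. Over genes with enough fragments, the squared difference between 2 libraries was set against the variance of fragment sampling. It was 3.49 times that variance for WT1 with WT3 and 3.98 times for KO2 with KO3. For the other 13 pairs it was 36.4 to 72.7 times. WT2 and KO1 thus stood apart within their genotypes. The methods describe the libraries as coming from separate littermate mice, whereas the labels do not tie a library to a mouse. The p-values measure the spread between these 6 libraries, part of which may be technical. All 6 were kept as samples, and the counts that rest on the libraries that stood apart are given with and without them.

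Levels of members are FPKM that were put on a common scale by median-of-ratios size factors, because KO3 was deposited with the divisor of KO2. All 43 members passed the filter of a mean FPKM of at least 0.1. Each held 218 to 65361 fragments in every library, so none was near the floor of 3 fragments, and intervals given for fold changes cover the spread between libraries. Mean levels ran from 0.705 FPKM (Utp14b) to 723 FPKM (Nop10), with a median of 23.6 FPKM, and 31 members had at least 10 FPKM. The 5 highest were Nop10, Npm1, Nop16, Rrp1 and Ncl.

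Promoters are shown where they hold a piece of the long site that ZNF143 binds. RefSeq promoters of GRCm38.p6, from 250 bases before to 50 after the start, were given for 34 of the 43 members. The other 9 (Bop1, Fbl, Nol6, Nop53, Npm1, Rrp12, Utp11, Utp23 and Utp6) had no promoter sequence and were not searched for any letters. The letters ACTACAA were found on either strand in 4 of the 34 (Nop14, Nop16, Utp15 and Wdr12). This was 11.8%, against 3.78% of the promoters of 27025 genes. CCCANNATG stood in 4 others of the 34 (Noc2l, Nol12, Nop10 and Nop9), or 11.8%, against 5.79% of all. Either piece stood in 8 of 34 (23.5%), against 9.10% of all promoters and 10.03% of those of genes tested here. The windows below are read on the strand of the gene, with the piece in capitals, and TTGTAGT and CATTCTGGG are these pieces read from the other strand.
Nop10 (chr2:112261879-112261925, + strand): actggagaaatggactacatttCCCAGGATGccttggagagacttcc
Noc2l (chr4:156235981-156236014, + strand): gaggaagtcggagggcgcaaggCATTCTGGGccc
Nol12 (chr15:78934776-78934828, + strand): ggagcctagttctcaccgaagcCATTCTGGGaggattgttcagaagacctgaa
Nop9 (chr14:55745633-55745685, + strand): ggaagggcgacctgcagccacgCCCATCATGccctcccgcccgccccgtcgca
Nop14 (chr5:34660216-34660266, - strand): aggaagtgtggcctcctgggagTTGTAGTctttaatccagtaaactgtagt
Nop16 (chr13:54590104-54590154, - strand): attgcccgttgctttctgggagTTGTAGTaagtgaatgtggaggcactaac
Utp15 (chr13:98263054-98263104, - strand): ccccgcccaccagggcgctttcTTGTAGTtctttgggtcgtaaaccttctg
Wdr12 (chr1:60097908-60097941, - strand): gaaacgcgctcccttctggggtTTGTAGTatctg
A match is a description of the letters and does not show binding. The piece began 25 bases before the start in Nop10, 96 in Nop14, 58 in Nop16 and 90 in Utp15.

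Among the 43 members, 1 was called at an adjusted p under 0.05, which was Rrp12, higher in the Znf143 -/- cells. This was 2.33% of the members, against 5.98% of the 19293 genes tested (3% called higher and 2.99% called lower). None was called lower by limma, in the log2 fit or by limma voom on recovered fragments, and 3 of the 43 had an unadjusted p under 0.05 and a negative log2 fold change. In all, 10 members (23.3%) had an unadjusted p under 0.05, against 24.2% of all genes, so the members as a group stood at the background. The 6 libraries separated without overlap for 7 members that were higher in KO (16.3%, against 15.4% of all genes) and for 4 that were lower (9.30%, against 15.3%).

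Members lay close to no difference. The median log2 fold change (KO minus WT, on log2(FPKM + 0.1)) was 0.05 over the members and 0.01 over all genes tested, with 26 members above and 17 below 0. On the deposited scale, where KO3 carries another divisor, the median of all genes moved to 0.11 and that of the members to 0.17, with 34 above 0 and 9 below. Of the 19293 genes tested, 9772 were above 0 and 9521 below on the common scale, and 11938 and 7320 on the deposited scale. The 95% interval of the fold change lay within 2-fold for 41 members and within 1.5-fold for 33. Over all genes tested this held for 11997 and 6306. The intervals take WT1 with WT3 and KO2 with KO3 as separate samples, although these lay close together. The exceptions at 2-fold were Rrp12, whose upper bound was 2.02-fold, and Nop10, whose lower bound was 0.485-fold.

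**Figure D1:**
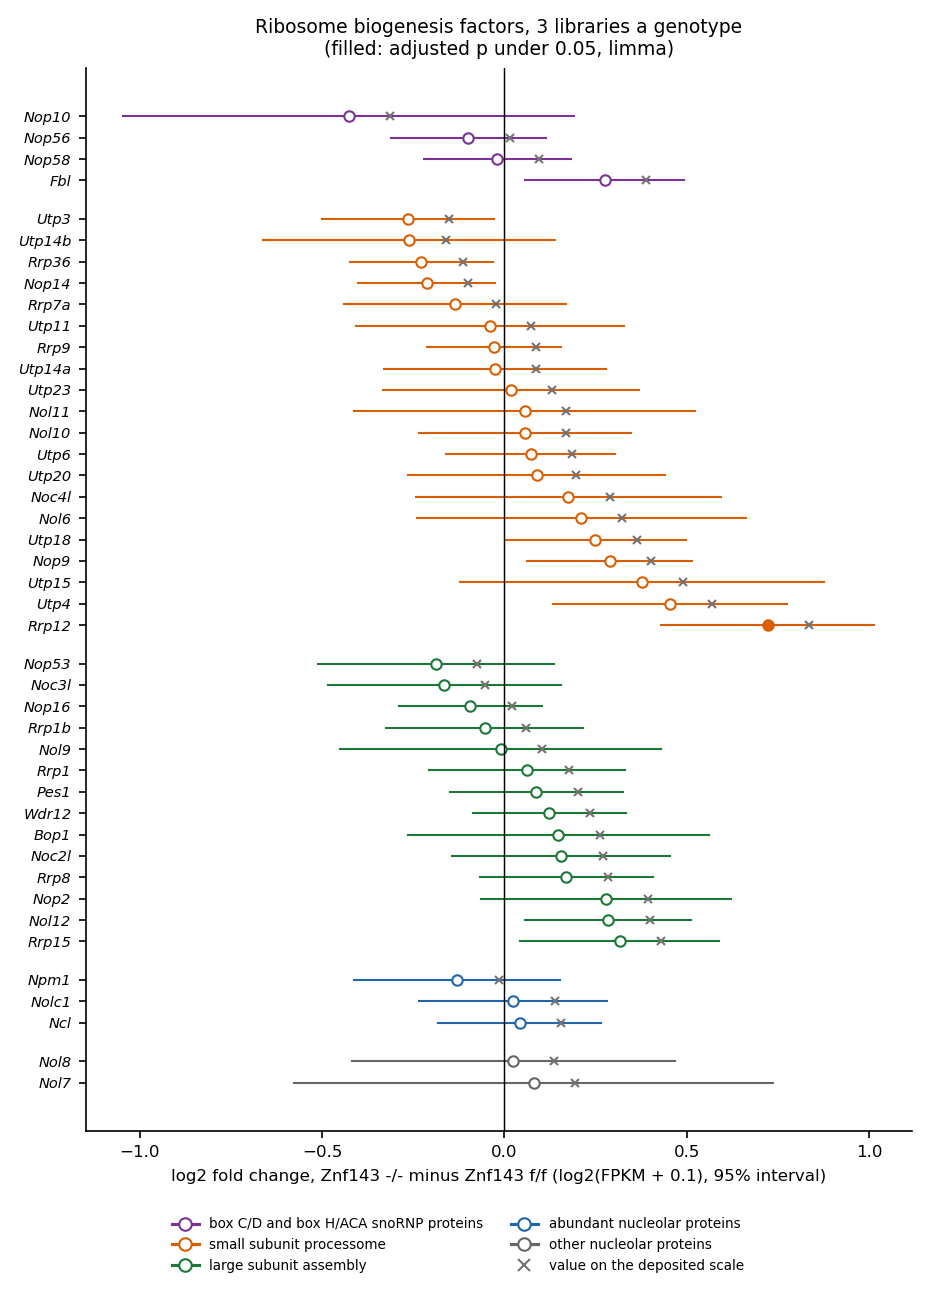
Log2 fold change (KO minus WT, circles, x axis) of the 43 members by role, with 95% intervals from limma; Rrp12 (0.72) is the filled circle, called at an adjusted p under 0.05, and the others are open. Crosses mark the value on the deposited scale, which lies to the right of each circle and above 0 for 34 members.

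The small subunit processome, a large particle that forms on the growing precursor and makes the early cuts that free the small subunit rRNA, held 20 members with log2 fold changes from -0.26 to 0.72 and a median of 0.06. Of these, 12 were above 0 and 8 below. Rrp12, a HEAT-repeat protein of small subunit maturation and export, lies on chromosome 19 (41862851-41896173, minus strand, GRCm38). Its level was 4.69, 4.84 and 4.72 FPKM in WT1 to WT3 and 6.72, 8.78 and 8.34 FPKM in KO1 to KO3. Every KO library was above every WT library, and KO1 was the lowest of the KO libraries. The means were 4.75 ± 0.0770 and 7.95 ± 1.09 FPKM (SD, n = 3 each), which gave a log2 fold change of 0.72 (SE 0.123, 95% interval 0.43 to 1.01, limma adjusted p = 0.0232). The adjusted p of Rrp12 by limma was 0.0324 without WT2 and 0.00848 without KO1, but 0.0960 without WT1, 0.107 without WT3, 0.0935 without KO2, 0.128 without KO3 and 0.0581 on the deposited scale.

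Utp4, a WD-repeat subunit of the t-UTP subcomplex that joins rDNA transcription to processing, was the member next to the threshold. It had 19.7, 19.7 and 20.0 FPKM in WT and 22.1, 30.5 and 29.8 FPKM in KO. All KO libraries were above the WT libraries, but KO1 lay nearer to WT than to KO2 and KO3. The log2 fold change was 0.45 (SE 0.134, adjusted p = 0.101 by limma), and without KO1 it was 0.60 (adjusted p = 0.00913). Across the fits that left out 1 library, the adjusted p of Utp4 by limma reached 0.328. Utp15, of the same subcomplex, had 6.17, 4.92 and 6.34 FPKM in WT and 5.53, 9.09 and 8.503 FPKM in KO, so that KO1 fell among the WT libraries. Nol11, another t-UTP subunit, showed 13.9, 10.2 and 13.4 FPKM in WT and 9.93, 15.1 and 14.2 FPKM in KO. Here WT2 and KO1 were both low, the groups overlapped, and the log2 fold change was 0.05 (adjusted p = 0.897, limma). Utp15 is named for its values, outside the rule for named genes.

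At the other end of the small subunit factors stood Utp3, the homologue of yeast Sas10. It had 48.6, 57.5 and 49.8 FPKM in WT and 45.5, 40.1 and 43.9 FPKM in KO. The groups did not overlap, with a log2 fold change of -0.26 (SE 0.0984, adjusted p = 0.165 by limma). Nop14, a core subunit of the processome, had 25.0, 23.9 and 25.5 FPKM in WT and 22.6, 20.4 and 21.1 FPKM in KO. These groups did not overlap either, at a log2 fold change of -0.21 (adjusted p = 0.164 by limma). Rrp36, needed for early cleavage of the precursor, showed a log2 fold change of -0.23 (43.04 to 49.9 FPKM in WT and 39.1 to 39.9 FPKM in KO) and is named for its lack of overlap.

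Utp14b, a retroposed copy of Utp14a best known from male germ cells, had the lowest level of all members. Its values were 0.803, 0.813 and 0.717 FPKM in WT and 0.643, 0.610 and 0.641 FPKM in KO. The libraries separated by genotype at a log2 fold change of -0.26 (SE 0.167, adjusted p = 0.394 by limma), and reads of the 2 copies may not have been told apart in counting. Its source gene Utp14a, with a log2 fold change of -0.03, had 7.27, 8.68 and 7.74 FPKM in WT and 8.83, 6.83 and 7.67 FPKM in KO, which overlapped. Rrp7a had 12.5, 10.8 and 11.9 FPKM in WT and 8.99, 11.8 and 11.4 FPKM in KO, and Utp11 had 21.1, 29.3 and 24.2 FPKM in WT and 27.6, 21.0 and 23.7 FPKM in KO. In both the groups overlapped. The remaining members of this class included Nop9 and Utp18, whose KO libraries were all above the WT libraries: Nop9, an RNA-binding protein with Pumilio repeats, had 22.7 to 26.0 FPKM in WT and 27.7 to 31.5 FPKM in KO, and Utp18 had 17.0 to 20.7 and 21.3 to 24.1 FPKM. The adjusted p was 0.129 for Nop9 and 0.206 for Utp18 (limma). Of the exonic bases of Nop9, 29.9% overlap the gene Cideb, and the library kit does not mark strand.

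**Figure D2:**
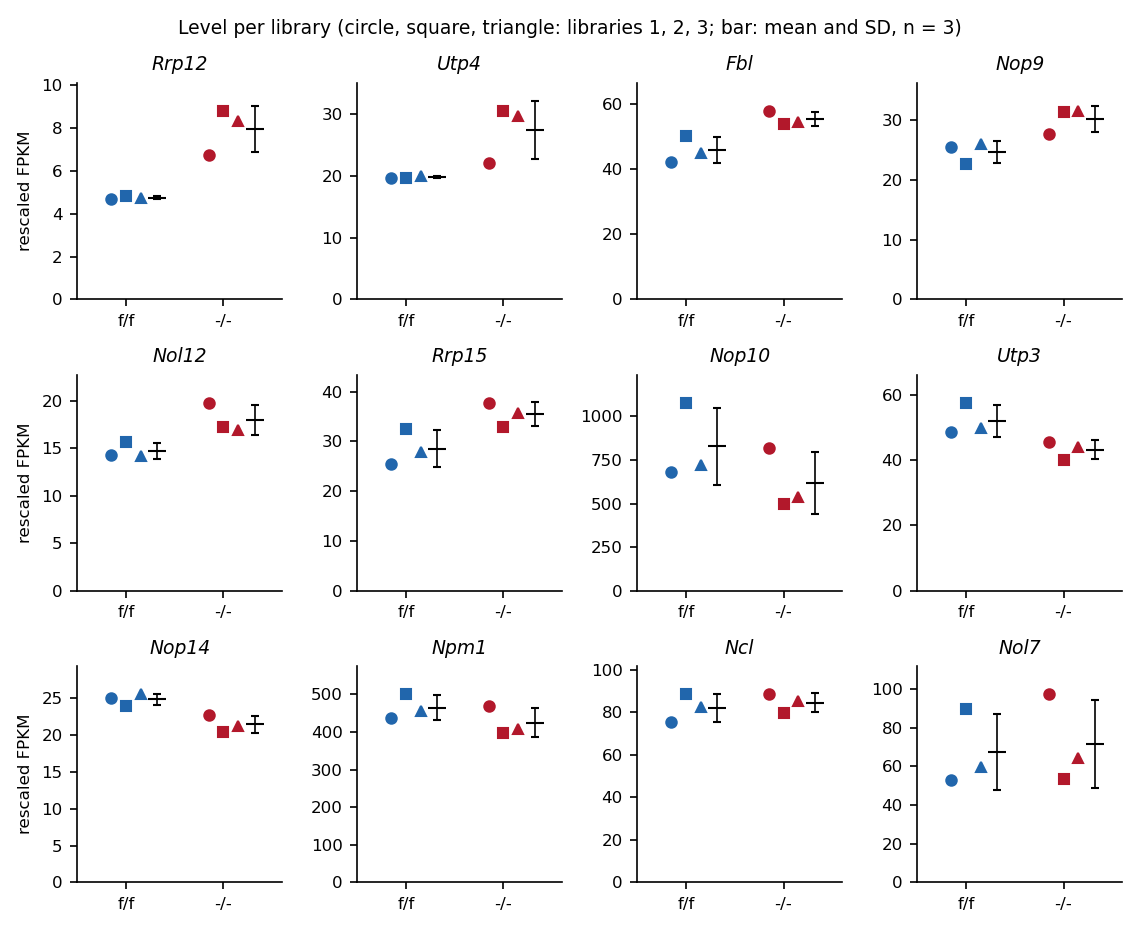
Rescaled FPKM (y axis from 0, linear) of 12 members in each library, with WT (f/f) in blue and KO (-/-) in red; circles, squares and triangles are libraries 1, 2 and 3, and bars are the mean and SD (n = 3). Rrp12 and Utp4 separate by genotype with KO1 the lowest of the KO libraries, whereas for Nop10 and Nol7 the square of WT and the circle of KO are high together.

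Of the 4 snoRNP proteins none was called by limma in the log2 fit, and 1 (Fbl) had an unadjusted p under 0.05. Fbl, the methyltransferase of box C/D snoRNPs, had 42.2, 50.1 and 45.0 FPKM in WT and 57.7, 53.6 and 54.4 FPKM in KO. All KO libraries exceeded the WT libraries, with means of 45.8 ± 4.02 and 55.3 ± 2.15 FPKM (SD, n = 3 each). The log2 fold change was 0.27 (SE 0.0911, adjusted p = 0.131 by limma). Across the fits that left out 1 library, the adjusted p of Fbl by limma ran from 0.0479 (without WT2) to 0.356. Nop56 and Nop58, the paired scaffold proteins of the same particle, did not separate. Nop56 had 72.3, 81.9 and 73.9 FPKM in WT and 66.4, 72.8 and 73.7 FPKM in KO (log2 fold change -0.10, 95% interval -0.31 to 0.11). Nop58 had 26.3, 30.0 and 28.8 FPKM in WT and 28.7, 26.6 and 28.6 FPKM in KO (log2 fold change -0.02, 95% interval -0.22 to 0.18). On the deposited scale both log2 fold changes were above 0, at 0.02 and 0.09.

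Nop10, a small protein of box H/ACA snoRNPs that is also part of telomerase, was the most abundant member. Its promoter carries the CCCAGGATG letters shown above. The levels were 681, 1078 and 724 FPKM in WT1 to WT3 and 819, 497 and 537 FPKM in KO1 to KO3. WT2 and KO1 were each the highest library of their genotype, so that KO1 lay above WT1 and WT3 and the groups overlapped. The means of 828 ± 218 and 618 ± 176 FPKM (SD, n = 3 each) gave the lowest log2 fold change of the members, -0.43 (SE 0.259, 95% interval -1.04 to 0.19, adjusted p = 0.368 by limma). The difference was -0.40 between KO1 and WT2 and -0.44 between the mean of KO2 and KO3 and that of WT1 and WT3. With WT2 and KO1 taken as a block of their own, a fit chosen after the libraries had been compared and in which WT1 with WT3 and KO2 with KO3 lie close together, the adjusted p was 0.00967. With each close pair averaged it was 0.785.

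The 14 large subunit assembly factors ranged from -0.19 to 0.32 on the log2 scale, with a median of 0.10, 9 above 0 and 5 below. None was called by limma in the log2 fit, and 2 (Nol12 and Rrp15) had an unadjusted p under 0.05. Rrp15, a factor of early large subunit particles, had 25.4, 32.5 and 27.8 FPKM in WT and 37.8, 32.9 and 35.7 FPKM in KO. The groups touched closely without overlap, between WT2 and KO2, and the log2 fold change was 0.32 (SE 0.114, adjusted p = 0.156 by limma, and 0.0480 without WT2). Nol12, a nucleolar RNA-binding protein, had 14.3, 15.7 and 14.3 FPKM in WT and 19.8, 17.2 and 17.0 FPKM in KO. It separated by genotype, with a log2 fold change of 0.28 (SE 0.0955, adjusted p = 0.133 by limma).

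Pes1, Bop1 and Wdr12 form the PeBoW complex, which is needed to process the large subunit rRNA. Pes1 had 42.4, 41.5 and 42.4 FPKM in WT and 39.2, 48.3 and 47.2 FPKM in KO, and Wdr12 had 14.9, 15.2 and 14.7 FPKM in WT and 14.8, 17.2 and 16.8 FPKM in KO. In both genes KO2 and KO3 were above all WT libraries and KO1 was not. Their log2 fold changes were 0.09 and 0.12 (adjusted p = 0.645 and 0.447 by limma). Bop1 overlapped as well, at 36.9 to 51.2 FPKM in WT and 41.1 to 56.5 FPKM in KO.

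Noc2l, which escorts large subunit precursors through the nucleus, had 54.7, 46.3 and 53.7 FPKM in WT and 49.0, 62.7 and 61.1 FPKM in KO, and 20.9% of its exonic bases overlap Samd11. Noc3l, of the same family, had 3.91, 4.77 and 4.66 FPKM in WT and 3.48, 4.09 and 4.31 FPKM in KO, with a log2 fold change of -0.16 (95% interval -0.48 to 0.15). Nop53, which brings the exosome to large subunit precursors, had the lowest value of this class at -0.19 (64.0, 82.4 and 68.2 FPKM in WT and 71.7, 56.4 and 59.9 FPKM in KO). The groups overlapped for each of these genes. Nop16 and Rrp1 were the most abundant factors of the class, at 103 and 88.1 FPKM on average. Nop16 ranged from 102 to 112 FPKM in WT and from 95.6 to 104 FPKM in KO, and Rrp1 from 81.0 to 91.2 FPKM in WT and from 78.3 to 99.4 FPKM in KO, so that neither separated the genotypes.

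The abundant nucleolar proteins did not separate the genotypes. Npm1 (nucleophosmin), the chaperone of the outer nucleolar compartment that is often mutated in acute myeloid leukemia, had 436, 500.5 and 456 FPKM in WT and 469, 397 and 408 FPKM in KO. KO2 and KO3 were below all WT libraries, KO1 lay among them, and the log2 fold change was -0.13 (95% interval -0.41 to 0.15, adjusted p = 0.556 by limma). Ncl (nucleolin), which binds the precursor rRNA, had 75.5, 88.5 and 82.5 FPKM in WT and 88.6, 79.7 and 85.1 FPKM in KO, a log2 fold change of 0.04 (95% interval -0.18 to 0.26). Nolc1, a chaperone of snoRNPs, had 20.6, 21.3 and 22.4 FPKM in WT and 18.9, 22.9 and 23.9 FPKM in KO, a log2 fold change of 0.02 (95% interval -0.23 to 0.28). For these 3 genes the intervals lay within 1.5-fold, and Npm1 has processed pseudogenes that can share its reads.

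Nol7 and Nol8, 2 further nucleolar proteins, varied more between libraries of a genotype than between genotypes. Nol7 had 52.9, 89.9 and 59.7 FPKM in WT and 97.3, 53.5 and 64.4 FPKM in KO, with WT2 and KO1 far above the rest. Its log2 fold change was 0.08, with a 95% interval from -0.58 to 0.74. Nol8 was also highest in WT2 and KO1, at 3.0, 4.35 and 3.52 FPKM in WT and 4.30, 3.03 and 3.71 FPKM in KO.

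Nol7, Nop10 and Nol11 shared a library pattern, which was measured in all members. For each member, WT2 was set against the mean of WT1 and WT3, and KO1 against the mean of KO2 and KO3. The 2 deviations had the same sign in 32 of 43 members, 15 high in both and 17 low in both. This was 74.4% of the members, against 70.5% of 7093 genes with a mean of at least 5 FPKM and 60.3% of all genes tested. Pearson's r between the deviations was 0.80 across the 43 genes. It was 0.32 across the 7093 genes and 0.09 across all genes tested. It was not taken over the 94 other assembly factors described below, so the pattern is not shown to be particular to the members. The deviations reached 0.68 (WT2) and 0.73 (KO1) on the log2 scale for Nol7, and -0.34 and -0.66 for Utp15. Across the members they correlated with the GC content of the exons at r = -0.42 in either library, whereas the same r was -0.01 and 0.05 over the 7093 genes. With the log of gene length r was -0.16 (WT2) and -0.13 (KO1) across the members and -0.31 and -0.42 over the 7093 genes. The part of GC content and length in the members' values was not tested. These values describe genes that share libraries and are not independent replicates, and what WT2 and KO1 have in common is not stated in the labels.

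**Figure D3:**
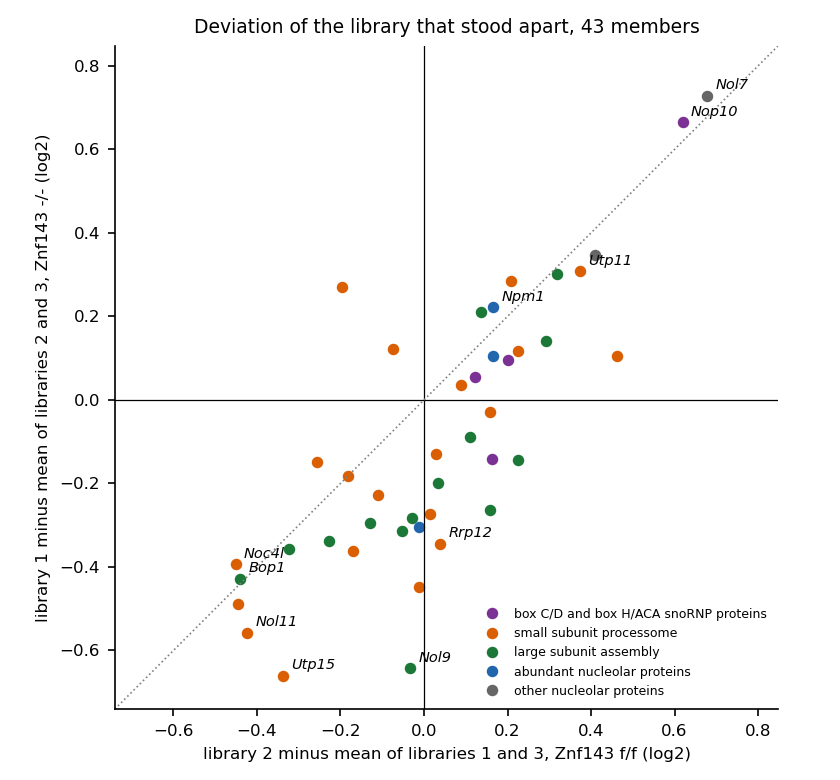
Deviation of WT2 from WT1 and WT3 (x axis, log2) and of KO1 from KO2 and KO3 (y axis, log2) for the 43 members, colored by role, with the dotted line of equal deviation. Nol7 and Nop10 are high and Utp15 and Nol11 low in both libraries, and Pearson's r is 0.80.

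The genotype difference was therefore also taken within each set of libraries. It had the same sign in both sets for 26 of 43 members (60.5%, against 61.7% of all genes), 15 above 0 and 11 below, and the median was -0.05 between KO1 and WT2 and 0.11 between KO2 with KO3 and WT1 with WT3. Rrp12 was higher in both, by 0.47 and 0.85 on the log2 scale. Utp4 was higher by 0.16 and 0.60, Fbl by 0.20 and 0.31, and Nop9 by 0.29 in each set. Utp3 was lower in both (-0.34 and -0.23), as was Nop14 (-0.08 and -0.28). Nol9, a polynucleotide kinase of rRNA processing, changed sign, at -0.42 and 0.19, and so did Utp20, at 0.40 and -0.07.

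**Figure D4:**
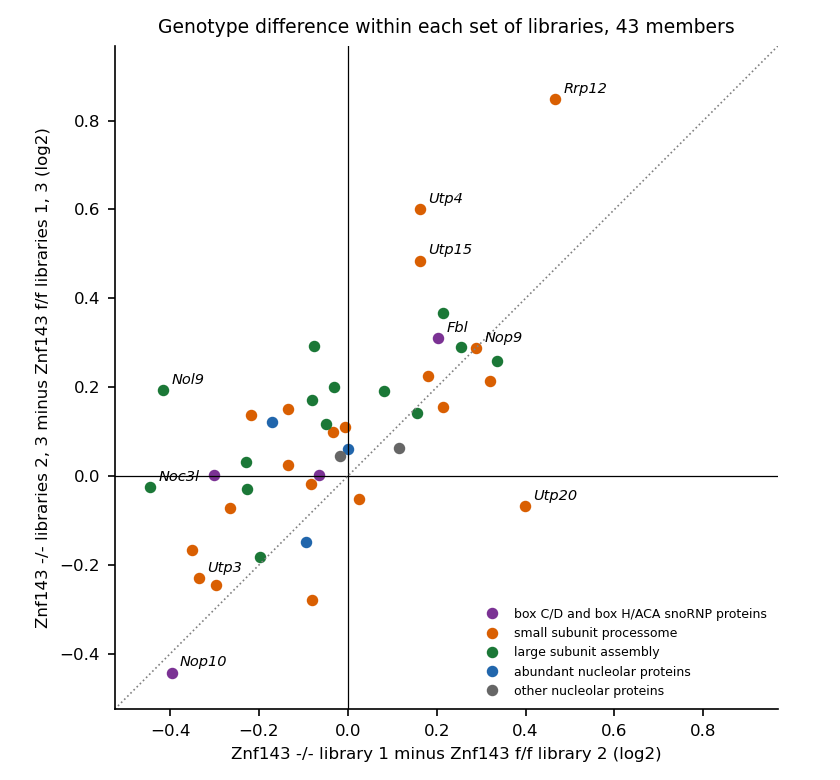
Genotype difference of each of the 43 members between KO1 and WT2 (x axis, log2) and between KO2 with KO3 and WT1 with WT3 (y axis, log2), with the dotted line of equal difference. Rrp12 is the highest on both axes (0.47 and 0.85), Nop10 is low on both (-0.40 and -0.44), and Nol9 and Utp20 lie in opposite quadrants.

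The number of members called depended on how these libraries were treated, and so did the number over all genes. Limma called 3 members (6.98%, against 11.9% of all genes) without WT2, which were Fbl, Rrp15 and Rrp12, and 2 (4.65%, against 11%) without KO1, which were Utp4 and Rrp12. It called 0 without any 1 of WT1, WT3, KO2 and KO3, and the number called over all genes fell as low as 223 there. In these fits 2 to 6 members had an unadjusted p under 0.05, and the share of all genes at that p was not counted. With WT1, WT3, KO2 and KO3 alone, limma called 20 members (46.5%), against 42.4% of all genes. With WT2 and KO1 kept as a block of their own it called 12 members (27.9%), against 20% of all genes: Rrp12, Utp4, Utp15, Rrp15, Nop9, Nol12, Nop2, Fbl and Utp18 higher, and Nop53, Utp3 and Nop10 lower. With WT1 and WT3 averaged to 1 sample, and likewise KO2 and KO3, limma called 0 members, against 0.243% of all genes. An unadjusted p under 0.05 was held by 1 member, without a count over all genes. Rrp12 was among those called in the first 2 of these fits. These 3 fits were chosen after the libraries had been compared.

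The study lists genes with strong ZNF143 association at the promoter, a list that was made with the expression of these libraries in view and is no independent evidence of direction. It holds 1420 of the 23116 genes in the table and 11 of the 43 members: Wdr12, Nop58, Noc2l, Pes1, Utp3, Nop10, Nop16, Utp11, Rrp7a, Nop14 and Nol11. None of the 11 was called by limma, against 5.98% of all genes. An unadjusted p under 0.05 was found for 2 (Utp3 and Nop14), or 18.2%, against 24.2% of all genes. Their median log2 fold change was -0.04, with 4 above 0 and 7 below, against 0.07 for the other 32 members, with 22 above and 10 below. On the deposited scale 7 of the 11 were above 0 and the median was 0.07. Nop10, Noc2l, Nop14, Nop16 and Wdr12 are on the list and also hold a piece of the ZNF143 site, and their log2 fold changes ran from -0.43 (Nop10) to 0.16 (Noc2l). The 8 members that hold a piece had a median of 0.14, and those 8 include members at either end, since Nop9, Nol12 and Utp15 lay between 0.28 and 0.38.

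Other promoter letters were also counted. CACGTG, the E-box bound by Myc and related factors, stood in 8 of 34 member promoters (Nol11, Nop2, Pes1, Rrp7a, Utp14b, Utp18, Utp20 and Utp4; 23.5%, against 8.09% of all promoters and 11.5% of those of genes tested). TCGCGAGA stood in 3 (Nol9, Nop14 and Nop58; 8.82%, against 1.13% and 2.31%). The holders of CACGTG had log2 fold changes from -0.26 to 0.45 with a median of 0.09.

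Assembly factors outside the 43 were read from a list of 97 genes, of which 94 were analysed: 30 of the small subunit, 39 of the large subunit, 7 of snoRNPs and their assembly, 7 of rDNA transcription and 11 of the exosome. None of the 94 was called by limma, in the log2 fit or by voom, and 12 (12.8%) had an unadjusted p under 0.05, all of them higher in KO, where 12.4% of all genes were higher at that p and 11.8% lower. Their median log2 fold change was 0.11, with 73 above 0 and 21 below. Without WT2 limma called 3 of them (3.19%, against 11.9% of all genes) and without KO1 10 (10.6%, against 11%), all higher. With WT1, WT3, KO2 and KO3 alone it called 56 (59.6%, against 42.4% of all genes), of which 50 were higher, and with WT2 and KO1 as a block of their own 17 (18.1%, against 20%), of which 15 were higher. The medians were 0.11 for the small subunit, large subunit and exosome lists, 0.03 for snoRNPs and 0.13 for rDNA transcription. The KO libraries were all above the WT libraries for 16 of the 94 (17.0%, against 15.4% of all genes) and all below for 2 (2.13%, against 15.3%). The lowest adjusted p by limma was that of Pno1, a factor of small subunit maturation, at 0.0608. It had 46.9, 44.2 and 49.6 FPKM in WT and 58.2, 57.7 and 61.9 FPKM in KO, a log2 fold change of 0.34. Wdr36, a processome subunit, had 17.4, 18.4 and 18.1 FPKM in WT and 20.3, 27.7 and 26.2 FPKM in KO, with KO1 again the lowest of the KO libraries. Nmd3, the export adaptor of the large subunit, had the highest log2 fold change of the list, 0.52 (adjusted p = 0.131 by limma), and Dimt1, an rRNA adenine methyltransferase, the lowest, -0.38 (adjusted p = 0.283).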

How the data were processed

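The data are RNA-seq of the sorted stem cells (LSK+ CD150+ CD48- gate) in 3 libraries of each genotype, all in 1 table. The authors trimmed the reads, mapped them with STAR to the GRCm38 mouse genome, summarised fragments by gene and deposited FPKM of each library with the gene length. Columns of their own comparison (mean, log2 fold change, standard error, statistic, p-value, adjusted p-value) were not used. Of 138696 values, 99.99% gave whole fragments within 0.05 after multiplying by length. KO3 had been scaled with the divisor of KO2, which was 1.20 times too small, so every library was brought to a common scale with size factors (median of ratios over 19046 genes).

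The 19293 genes whose mean reached 0.1 FPKM entered limma (version 3.58.1, R 4.3.3, lmFit and eBayes with trend) as log2(FPKM + 0.1), with Benjamini-Hochberg adjustment over all of them. Fold changes of low genes are understated on this scale. On simulated data for KO against WT (19128 genes), 64 of 100 genes changed 2-fold and 13 of 100 changed 1.5-fold were called, and 9 of 86 calls were false. The simulated libraries were drawn independently, without close pairs such as WT1 with WT3, so these rates may not hold for the 6 libraries here. Members, roles and lists were chosen with earlier results of these data known. Named members were those called or next to the threshold, the 5 most abundant, the 2 highest and 2 lowest of each role, and those on the study's target list. Coordinates and exons are of GENCODE M21, in which 18 members share exonic bases with another gene. Alternatives were other scales, pseudocounts (0.01 and 1), filters, voom, no trend, a replicate block and leaving out each library. ChIP-seq and HiC samples were not analysed here.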

Additional observations from a re-analysis of the deposited data

How the results depend on the processing

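Of 18 alternatives, 3 were added after seeing the data. On the deposited scale 0 members were called, against 833 of the 19296 genes tested there. The median log2 fold change on that scale was 0.17 over the members and 0.11 over all genes. Leaving out each library in turn, the genes called ran from 223 to 2286, the members called from 0 to 3, the other assembly factors called from 0 to 10, and the members' median from -0.00337 to 0.126. With WT1, WT3, KO2 and KO3 alone 8115 genes, 20 members and 56 other factors were called, with WT2 and KO1 as a block 3863, 12 and 17, and with close libraries averaged 47 genes and 0 members. The methods describe pairs of littermates without tying them to libraries. Libraries with the same replicate number did not deviate together (correlations of -0.095, -0.088 and 0.036), and with a replicate block 191 genes and 0 members were called (Rrp12, adjusted p = 0.0955 by limma). Dividing each library by its own total, the other pseudocounts, filters and tests left Rrp12 as the 1 member called.

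Signs turned for 10 of 26 named members, all near 0. On the deposited scale these were Nop56 (0.0150), Nop16 (0.0197), Utp11 (0.0734) and Nop58 (0.0940), and Nop58 turned to 0.00970 with each library divided by its own total. Without 1 library the ranges were -0.152 to 0.0843 (Utp11), -0.0734 to 0.0212 (Nop58), -0.0414 to 0.126 (Nolc1), -0.0993 to 0.161 (Nol8), -0.0185 to 0.0963 (Ncl), -0.0863 to 0.241 (Nol11), -0.0120 to 0.160 (Rrp1) and -0.162 to 0.306 (Nol7). With WT1, WT3, KO2 and KO3 alone Nop56 and Nop58 stood at 0.0026 and 0.0025, and with close libraries averaged Nolc1 stood at -0.0254. The causes were not tested. With 3 libraries a genotype, changes of 1.5-fold were seldom called in simulated data, in which the libraries were independent.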
